A study of Mus musculus with 20 samples.

Results

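The galectin genes Lgals1, Lgals3, Lgals8 and Lgals9 were followed across 20 RNA libraries of mouse brain microglia. They were chosen by gene symbol and make up 4 of the 21315 symbols listed. All mice were C57BL/6 and 9 months old, and the cells were sorted from papain-digested brain by FACS as CD45 mid and CD11b+. In 6 libraries the cells were also sorted for C3aR, the receptor of the complement fragment C3a, through a Td-tomato reporter placed in C3ar1, from WT mice (WT C3aR+, n = 3) and APP-KI mice (APP-KI C3aR+, n = 3). The other 14, here called unselected, had no C3aR gate and were from 3 WT, 3 APP-KI and 3 C3aR-KO samples and from 5 samples that combine both alleles, APP-KI; C3aR-KO. APP-KI is the APP NL-G-F knock-in. Its App allele, at the mouse locus, encodes the human form of Aβ, and NL, G and F stand for 3 sets of changes from familial Alzheimer's disease, named Swedish, Arctic and Iberian. C3aR-KO mice lack C3ar1. The labels do not say that every library came from its own mouse, so the p-values measure the spread between these libraries.

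Galectins are small proteins that bind β-galactose on glycans. They are made without a signal peptide, so most of the protein is in the cytosol, and part of it leaves the cell by a route outside the Golgi. Galectin-1, from Lgals1, has a single binding domain and forms dimers, galectin-3 (Lgals3) joins its domain to a long tail through which it forms larger assemblies, and galectin-8 (Lgals8) and galectin-9 (Lgals9) carry a pair of different domains on one chain. Inside the cell galectin-3, galectin-8 and galectin-9 gather on lysosomes whose membrane has torn. In microglia Lgals3 is known as a gene of the reactive state seen around Aβ plaques, and galectin-9 as a ligand of the receptor TIM-3.

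The values are read counts divided by the library's own 75th percentile count and multiplied here by 1 constant so that the libraries share a common scale, and are called scaled values here. They are not divided by gene length. The C3aR+ libraries held between 13939559 and 30388941 reads and the other 14 between 42239056 and 76608464. Before any result, 5 libraries stood apart from the rest. The libraries APP-KI replicate 4, C3aR-KO replicates 1 and 2 and APP-KI; C3aR-KO replicate 1, listed between 8076 and 8939 genes at 0, and are called the 4 sparse libraries, whereas APP-KI replicate 5 listed only 107 and the remaining 15 between 3876 and 6438. Results that rest on them are given with and without them. The deleted gene was low where the labels say so. C3ar1 lay at 39.9 to 68.1 in C3aR-KO. In APP-KI; C3aR-KO it lay at 61.9 to 80.4. WT libraries held 276 to 340 and APP-KI libraries 165 to 388, without overlap with either knockout group. In the libraries labelled WT C3aR+ it lay at 37.6 to 81.2, close to the range of both knockout groups and below every WT library, and in APP-KI C3aR+ at 200.96 to 383. The level of C3ar1 RNA thus goes against the label of the WT C3aR+ sort, which touches each comparison with those libraries. The mice of both C3aR+ groups carried the Td-tomato reporter in C3ar1, and its part in the C3ar1 counts was not tested. The 10 markers of microglia, such as P2ry12 and Tmem119, had reads in every library. App, the gene that carries the knock-in, was higher in APP-KI C3aR+ than in WT C3aR+ (log2 fold change 0.71, SE 0.14; limma, adjusted p = 0.0059). Between the unselected groups it was -0.13 (SE 0.25, adjusted p = 0.97) in mice with C3ar1 and -0.07 (SE 0.22, adjusted p = 0.90) in mice without.

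In GRCm38 (GENCODE M21) Lgals3 lies on chromosome 14 from 47367751 to 47386160 on the plus strand, Lgals9 on the minus strand of chromosome 11 (78962974 to 78984946), Lgals8 on the minus strand of chromosome 13 (12439415 to 12464944) and Lgals1 on chromosome 15 from 78926725 to 78930465 on the plus strand. The reads were counted over exons, which sum to 1858, 2137, 3688 and 903 bases in that order. The end of Lgals8 overlaps the end of Heatr1 on the other strand, up to position 12440289, and without a stated strand setting reads there cannot be told apart. Lgals1 has 2 annotated pseudogenes, Lgals1-ps1 and Lgals1-ps2, neither of which is among the symbols listed. How any reads that Lgals1 shares with them were treated is uncertain.

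The 250 bases before the start of 3 of the galectins are shown because the fitted App differences were above 0 for Lgals3 and below 0 for Lgals8 and Lgals9, although not all of them passed the test. They are RefSeq sequences of GRCm38.p6, 5′ to 3′ on the strand of the gene, and capitals mark a match on either strand to 1 of 5 motifs: AP-1 (TGANTCA), E-box (CACGTG), GC box (GGGCGG), PU.1 (AGGAAG) and interferon response (GAAANNGAA). Lgals1 had no entry in that table.
Lgals3, chr14:47373610-47373859, plus strand: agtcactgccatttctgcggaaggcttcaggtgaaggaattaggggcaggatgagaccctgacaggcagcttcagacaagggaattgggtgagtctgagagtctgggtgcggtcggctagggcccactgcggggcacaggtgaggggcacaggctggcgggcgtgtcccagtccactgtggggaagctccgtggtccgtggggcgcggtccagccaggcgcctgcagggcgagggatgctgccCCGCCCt
Lgals8, chr13:12461739-12461988, minus strand: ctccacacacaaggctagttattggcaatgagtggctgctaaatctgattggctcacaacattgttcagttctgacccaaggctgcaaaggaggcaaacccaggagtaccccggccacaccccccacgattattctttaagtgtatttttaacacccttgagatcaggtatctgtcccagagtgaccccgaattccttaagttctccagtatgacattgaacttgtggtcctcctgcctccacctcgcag
Lgals9, chr11:78984925-78985174, minus strand: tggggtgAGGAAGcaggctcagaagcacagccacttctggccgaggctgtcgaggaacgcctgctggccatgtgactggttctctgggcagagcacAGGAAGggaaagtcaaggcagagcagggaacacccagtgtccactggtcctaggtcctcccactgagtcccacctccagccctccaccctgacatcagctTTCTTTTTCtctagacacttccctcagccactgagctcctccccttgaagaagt
The Lgals3 sequence was 66% G and C, with 13 CpG steps, and had 1 GC box, from 7 to 2 bases before the start, a motif held by 32.9% of 27025 such promoters. Lgals9, at 58.4% G and C with 3 CpG steps, had 2 PU.1 matches, a motif held by 29.2% of promoters, and 1 interferon response match, held by 7.16%. Lgals8, at 49.2% G and C with 4 CpG steps, held none of the 5 motifs. The median promoter was 52% G and C. AP-1 (6.87% of promoters) and the E-box (6.05%) had no match in any of the 3. The RefSeq starts of all 3 lie inside the gene's span in GENCODE, so other starts exist.

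Compared per kilobase of exon, Lgals9 was the most abundant of the 4 in every library. Its mean in WT microglia was 103 ± 2.65 scaled units per kb (SD, n = 3), above that of 98.7% of genes. Lgals8 followed at 23.4 ± 1.88 and Lgals1 at 17.1 ± 6.77, whereas Lgals3 was lowest, at 4.90 ± 3.66, above 66.9% of genes. In APP-KI C3aR+ microglia the order of the lower 3 differed, with Lgals3 at 24.2 ± 7.99 per kb, Lgals8 at 17.9 ± 0.738 and Lgals1 at 14.7 ± 15.2, and Lgals3 stood above 91.5% of genes.

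In share, Lgals3 made up 1.69% ± 1.23 (SD, n = 3) of the summed galectin level per kb in WT C3aR+ and 19.5% ± 7.42 in APP-KI C3aR+, while Lgals9 went from 67.5% ± 6.63 to 55.1% ± 8.23. The summed level itself was 129.5 ± 11.5 per kb in WT C3aR+ and 125 ± 13.9 in APP-KI C3aR+, and these ranges overlapped (p = 0.9 by a two-sided exact permutation test, which cannot go below 0.1 with 3 against 3). In these bulk libraries more RNA per cell and more cells with the RNA cannot be told apart.

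**Figure D1:**
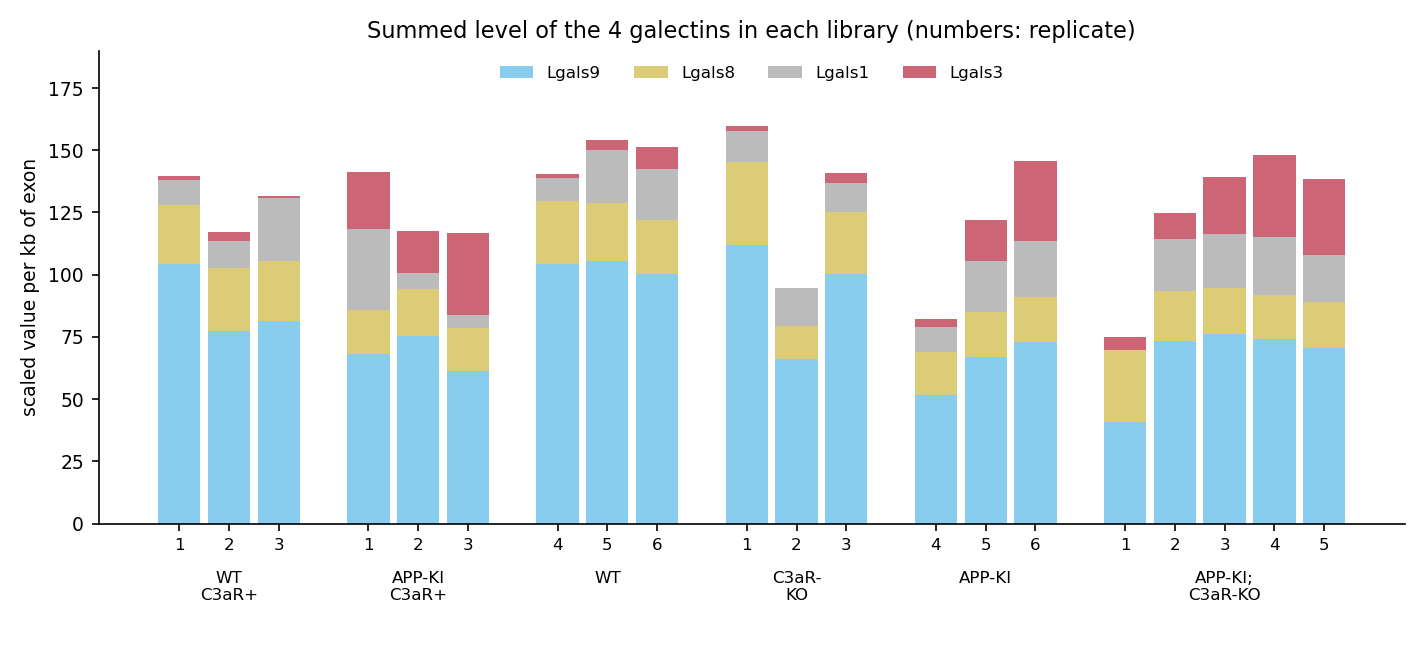
Bars give, for each library, the scaled value per kb of exon of Lgals9, Lgals8, Lgals1 and Lgals3 stacked from 0, with replicate numbers under the bars and groups below them. Lgals9 is the longest segment in all 20 libraries, and Lgals3 is 0.814% to 3.10% of the bar in WT C3aR+ and 14.4% to 28.0% in APP-KI C3aR+.

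The first comparison set the libraries labelled APP-KI C3aR+ against those labelled WT C3aR+, here called C3aR-positive microglia after their labels. C3ar1 itself differed between them, with a log2 fold change of 2.14 (SE 0.30; limma, adjusted p = 0.001). Lgals3 rose 11.5-fold, or 18.0-fold without WT C3aR+ replicate 2, and Lgals8 fell, while Lgals9 was lower by less than the test could call and Lgals1 did not differ beyond its spread. Thus 1 of the 4 galectins passed the test upward and 1 downward, and over all 12312 genes tested 13% were called higher and 9.71% lower. Calls are limma tests on log2(scaled value + 1) with Benjamini-Hochberg adjustment over all genes and an adjusted p under 0.05. The median of all genes lay at -0.17 on the log2 scale in this comparison, and at -0.03 under median ratio scaling, where the calls over all genes went from 1602 higher and 1196 lower to 1845 higher and 605 lower.

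Lgals3, in scaled values, was 2.99, 6.74 and 1.99 in the libraries labelled WT C3aR+ replicates 1 to 3. It was 42.6, 31.4 and 60.8 in APP-KI C3aR+, from 723 to 824 reads. All 3 APP-KI values lay above all 3 WT values. The log2 fold change was 3.29 (SE 0.41, 95% interval 2.38 to 4.21; limma, adjusted p = 0.00058), and on the 6 libraries alone the two-sided exact permutation test gave its smallest possible p, 0.1. The log2 ratio of Lgals3 to Lgals9 within a library, from scaled values with 1 added, was -5.87 to -4.42 in WT C3aR+. In APP-KI C3aR+ it was -2.33 to -1.10. The added 1 weighs most where Lgals3 is low, so the ratio still depends in part on the scaling.

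Lgals8, a cytosolic sensor of torn vesicles, moved the other way and by far less. It was 86.2, 93.5 and 88.9 in WT C3aR+ and 65.7, 69.0 and 63.6 in APP-KI C3aR+. The groups did not overlap, and their SDs of 3.68 and 2.72 were small beside the difference of the means. Its log2 fold change was -0.43 (SE 0.12, 95% interval -0.70 to -0.16; limma, adjusted p = 0.03). This call was lost under median ratio scaling (-0.29, adjusted p = 0.14) and when any 1 of the 6 libraries was left out (adjusted p 0.053 to 0.11).

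Lgals9 was 223, 165 and 174 in WT C3aR+. It was 146, 161 and 131 in APP-KI C3aR+. Here too the groups did not overlap, but the lowest WT library and the highest APP-KI library were 165 and 161. A log2 fold change of -0.35 (SE 0.14, 95% interval -0.67 to -0.03) did not pass the limma test (adjusted p = 0.11).

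Lgals1 was 9.29, 9.81 and 22.7 in WT C3aR+ and 29.1, 5.85 and 4.80 in APP-KI C3aR+. Both the highest and the lowest of the 6 values were in APP-KI libraries. Its log2 fold change was -0.38 (SE 0.62, 95% interval -1.76 to 1.00; limma, adjusted p = 0.67). The width of the interval leaves the direction of Lgals1 unresolved in these libraries.

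**Figure D2:**
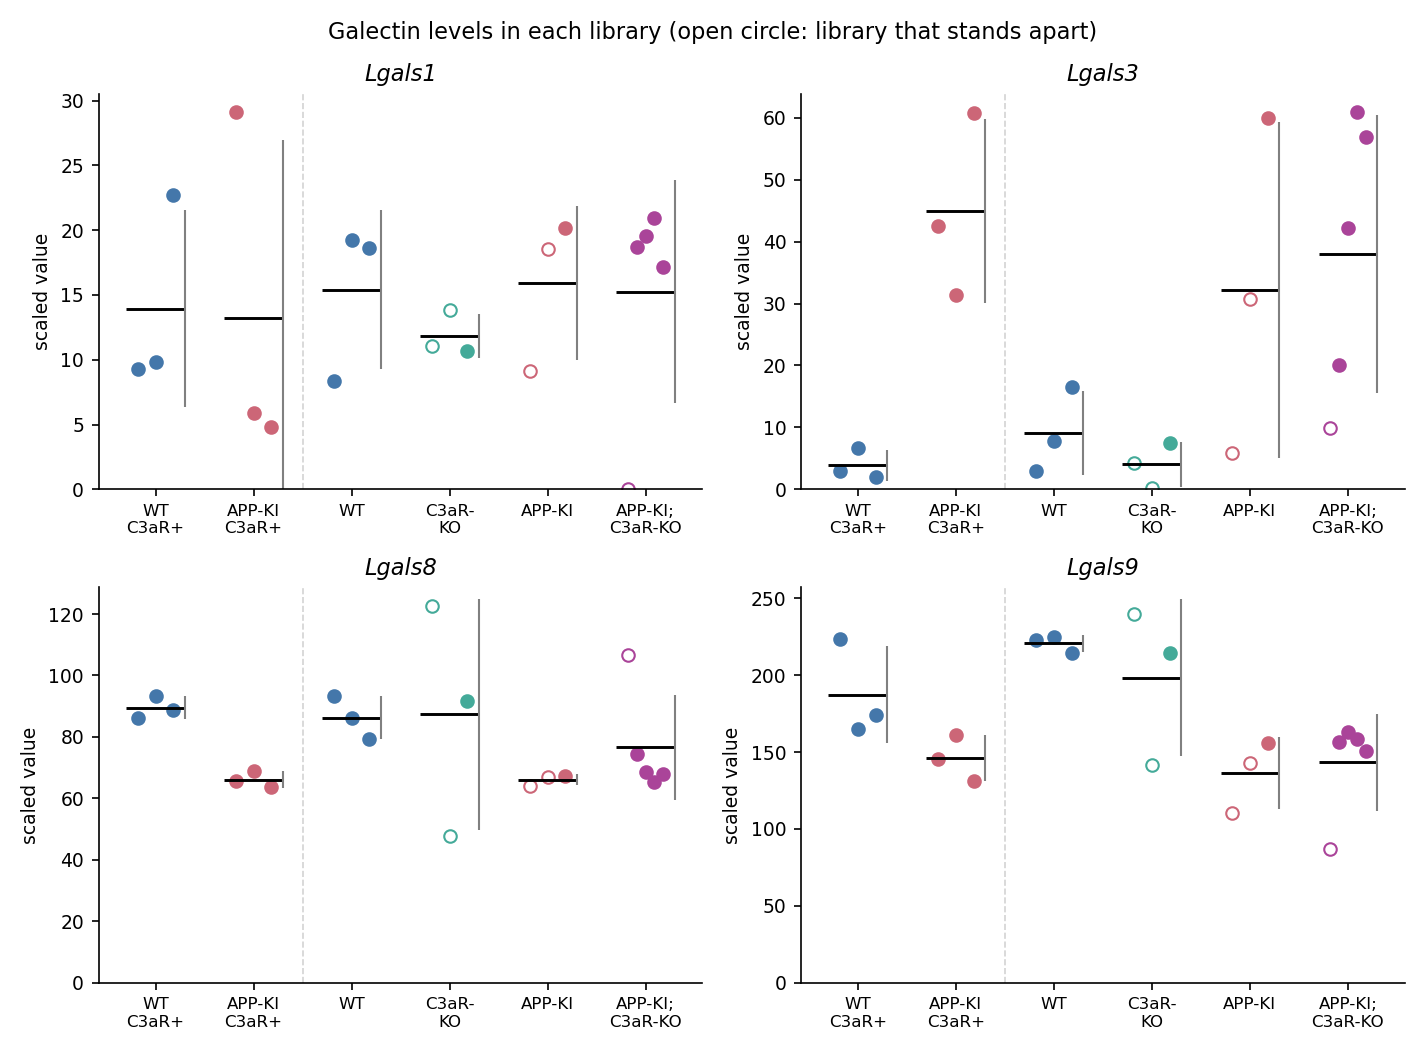
Scaled values (y axes, from 0) of the 4 galectins in each of the 6 groups, 1 point per library, with a black line at the group mean and a grey bar for 1 SD to each side, ended at 0. Open circles are the 5 libraries that stand apart, and the dashed line divides the C3aR+ sort from unselected microglia. Lgals3 is at 31.4 or more in all 3 APP-KI C3aR+ libraries and at 6.74 or less in WT C3aR+.

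In microglia not selected on C3aR, from mice of another cross, the same App genotypes gave the same direction for Lgals3, Lgals8 and Lgals9. With all 14 libraries in the fit, however, none of the 4 galectins passed the limma test. At an unadjusted p under 0.05 there were 2, Lgals3 and Lgals9, edgeR called 0 and DESeq2 called 1, Lgals3. Over all 12407 genes 2.22% were called higher and 1.93% lower. Without the 4 sparse libraries, an alternative added after the data were seen, Lgals3 passed upward and Lgals8 and Lgals9 downward, and the shares over all genes grew too, to 13.2% higher and 14.7% lower. That fit kept only replicates 5 and 6 of APP-KI, and replicate 5, with 107 genes at 0, also stands apart. Its standard errors rest on a spread shared with the other groups of the fit. Leaving out APP-KI replicate 4 alone was enough for Lgals3 to pass (2.64; limma, adjusted p = 0.021). A term for the 2 series of library numbers was part of these fits.

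Lgals3 was 3.02, 7.86 and 16.5 in WT replicates 4 to 6 and 5.84, 30.7 and 60.0 in APP-KI replicates 4 to 6. The lowest APP-KI value, in the sparse replicate 4, lay inside the WT range, and the other two lay above it. The log2 fold change was 2.08 (SE 0.60, 95% interval 0.79 to 3.36; limma, adjusted p = 0.076), and 2.59 (SE 0.28, 95% interval 1.95 to 3.22; adjusted p = 0.00023) without the sparse libraries. In the lower-numbered series, with 2 APP-KI libraries and 1 WT, the mean was 6.05 times that of WT, and in the higher-numbered series, with 1 and 2, it was 4.93 times. WT replicate 6, with the highest WT value, also had the highest summed level of 8 neutrophil markers such as S100a9, at 976 against 49.1 to 123 in the other WT libraries, whose part in the result was not tested.

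Lgals9 was 223, 225 and 214 in WT, a coefficient of variation of 2.57%, the smallest of the 4 galectins over the 6 groups. It was 110.5, 143 and 156 in APP-KI. Every APP-KI library lay below every WT library. The log2 fold change was -0.62 (SE 0.23, 95% interval -1.10 to -0.13; limma, adjusted p = 0.20) and, without the sparse libraries, -0.56 (SE 0.07, 95% interval -0.71 to -0.41; adjusted p = 0.00036). Lgals8 was 93.3, 86.1 and 79.4 in WT and 64.0, 66.9 and 67.4 in APP-KI, again without overlap. Its log2 fold change was -0.42 (SE 0.28; limma, adjusted p = 0.68), and -0.37 (SE 0.07; adjusted p = 0.0041) without the sparse libraries. Lgals1 lay at 8.36 to 19.3 in WT and 9.11 to 20.2 in APP-KI, ranges that nearly coincide, with a log2 fold change of 0.43 (95% interval -1.34 to 2.20; limma, adjusted p = 0.97).

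Among mice that lack C3ar1, the App knock-in was compared in the same fit. As a ratio of means over both series, Lgals3 was 9.49 times as high when App was knocked in. Without C3aR-KO replicate 3, the only library of its group that is not sparse, it was 17.0 times as high. These ratios ignore the series, and the ratio within each series, given below, was lower. Without the sparse libraries Lgals3 was 7.55 in C3aR-KO replicate 3 alone, beside a mean of 45.0 in APP-KI; C3aR-KO. With all libraries Lgals3 was the only galectin to pass, against 3.96% of genes called higher and 2.97% lower. It was 4.29, 0.173 and 7.55 in C3aR-KO, where the lowest value rests on 11 reads, and 9.95, 20.01, 42.2, 60.9 and 56.9 in APP-KI; C3aR-KO replicates 1 to 5. All 5 lay above all 3 of C3aR-KO, and the exact permutation test, two-sided, gave p = 0.0357, the smallest that 5 against 3 allows. The log2 fold change was 2.62 (SE 0.53, 95% interval 1.48 to 3.76; limma, adjusted p = 0.0074). Within the lower-numbered series (2 against 2) Lgals3 was 6.72 times as high, and within the higher-numbered one (3 against 1) 7.07 times, while the call was lost with edgeR (adjusted p = 0.061).

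Lgals9 was 239.5, 142 and 214 in C3aR-KO and 87.2, 157, 163, 159 and 151 in APP-KI; C3aR-KO. The groups overlapped through the sparse C3aR-KO replicate 2 alone. On the log2 scale the difference was -0.54 (SE 0.20; limma, adjusted p = 0.14). Lgals8 was 123, 47.8 and 91.8 in C3aR-KO, where the 2 sparse libraries held both the highest and the lowest value of all 20, and 107, 74.5, 68.7, 65.4 and 67.8 in APP-KI; C3aR-KO. Its log2 fold change was -0.08 (SE 0.25; limma, adjusted p = 0.90). Lgals1 was 11.1, 13.8 and 10.7 in C3aR-KO and 0, 18.7, 19.5, 20.9 and 17.2 in APP-KI; C3aR-KO. The value of 0 came from the sparse replicate 1, whose 42239056 reads allow up to 3 counts or 0.0679 scaled units, and the fitted fold change of Lgals1, -0.52 (95% interval -2.09 to 1.05), was 0.49 without that library.

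Without the 4 sparse libraries, where C3aR-KO keeps 1 library whose spread is taken to be that of the other groups, all 4 galectins passed: Lgals3 and Lgals1 upward and Lgals8 and Lgals9 downward. The log2 fold changes were 2.65 for Lgals3 (adjusted p = 0.00067), 0.88 for Lgals1 (adjusted p = 0.043), -0.44 for Lgals8 (adjusted p = 0.0051) and -0.44 for Lgals9 (adjusted p = 0.004), by limma. In that fit 13.2% of all genes were called higher and 18.2% lower.

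**Figure D3:**
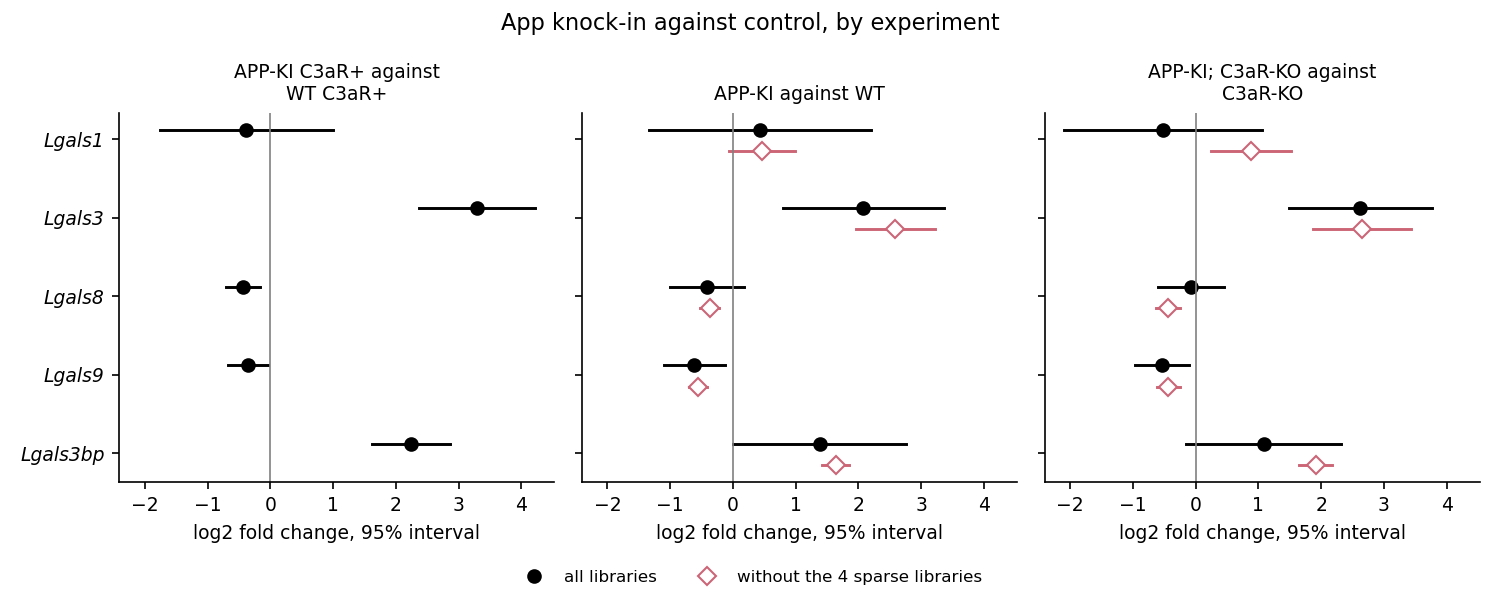
Log2 fold change (x axis) with its 95% interval for the 4 galectins and Lgals3bp in the 3 comparisons of the App knock-in with its control. Black circles use all libraries and open diamonds leave out the 4 sparse ones; Lgals3 lies between 2.08 and 3.29 in all 3 panels with all libraries, and Lgals8 and Lgals9 lie below 0.

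Loss of C3ar1 itself was not followed by a called change in any galectin. From WT to C3aR-KO limma called 0 of 4, with 0 at an unadjusted p under 0.05 and 0 by edgeR and DESeq2, against 0% of genes called higher and 0.00806% lower, a single gene, which was C3ar1. The intervals were wide: the log2 difference was -0.58 for Lgals3 (95% interval -1.86 to 0.71), -0.10 for Lgals9 (-0.58 to 0.38), -0.12 for Lgals8 (-0.71 to 0.47) and 0.10 for Lgals1 (-1.67 to 1.87). From APP-KI to APP-KI; C3aR-KO, the comparison that asks what losing C3aR does in APP-KI mice, 0 of 4 were called, with 0 at an unadjusted p under 0.05 and by both other tools, and again only C3ar1 was called among all genes (0% higher, 0.00806% lower). Lgals3 differed by -0.03 (95% interval -1.17 to 1.11), Lgals9 by -0.02 (-0.45 to 0.41), Lgals8 by 0.22 (-0.31 to 0.75) and Lgals1 by -0.85 (-2.42 to 0.72), or by 0.16 without APP-KI; C3aR-KO replicate 1. The 3 APP-KI values of Lgals3 and the 5 of APP-KI; C3aR-KO covered almost the same range, 5.84 to 60.0 and 9.95 to 60.9.

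The difference between the App effect without and with C3ar1 was tested directly. It was 0.55 for Lgals3 (95% interval -1.21 to 2.30), or 0.061 (-0.93 to 1.05) without the sparse libraries, 0.08 for Lgals9 (-0.58 to 0.74), 0.34 for Lgals8 (-0.47 to 1.15) and -0.95 for Lgals1 (-3.37 to 1.47), or 0.31 without the replicate at 0. None of the 4 passed by limma, edgeR or DESeq2 or at an unadjusted p under 0.05, and no gene of 12407 was called by limma or edgeR (0% in either direction), while an unadjusted p under 0.05 was reached upward by 111 and downward by 92, and DESeq2 called 1.

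The C3aR+ sort was set against unselected microglia of the same App genotype in 12 libraries, but every C3aR+ library belongs to a series of library numbers of its own. Per the study's methods, the C3aR+ mice also came from a separate cross that carried the reporter in C3ar1. Sort, series, cross and reporter thus cannot be told apart. In WT mice the libraries labelled WT C3aR+ had a mean Lgals3 of 3.91 ± 2.50 and the unselected ones 9.11 ± 6.81 (SD, n = 3 each), a log2 difference of -0.92 (95% interval -2.45 to 0.61). In APP-KI mice the means were 44.9 ± 14.8 and 32.2 ± 27.1, a difference of 0.91 (-0.62 to 2.44), and without APP-KI replicates 4 and 5 only 1 unselected library is left, at 60.0, and the difference is -0.46, the other way. For the other members the differences lay between -0.60 and 0.11, with Lgals8 at 0.05 in WT (-0.19 to 0.30) and at -0.00062 in APP-KI (-0.24 to 0.24). The App effect on Lgals3 in C3aR+ less that in unselected microglia was 1.82 (95% interval -0.34 to 3.99; limma, adjusted p = 0.47), and 0.93 (adjusted p = 0.64) without the sparse APP-KI library. In these 3 contrasts limma called 0 of the 4 galectins and 0% of 12589 genes, there were 0 galectins at an unadjusted p under 0.05, and edgeR and DESeq2 called 0 of the 4. Over all genes edgeR called 0 in each. For the sort in WT an unadjusted p under 0.05 was reached upward by 126 genes and downward by 426, and DESeq2 called 1 and 35. For the sort in APP-KI these were 200 and 457, with 1 and 27 by DESeq2, and for the difference of App effects 836 and 644, with 87 and 33.

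**Figure D4:**
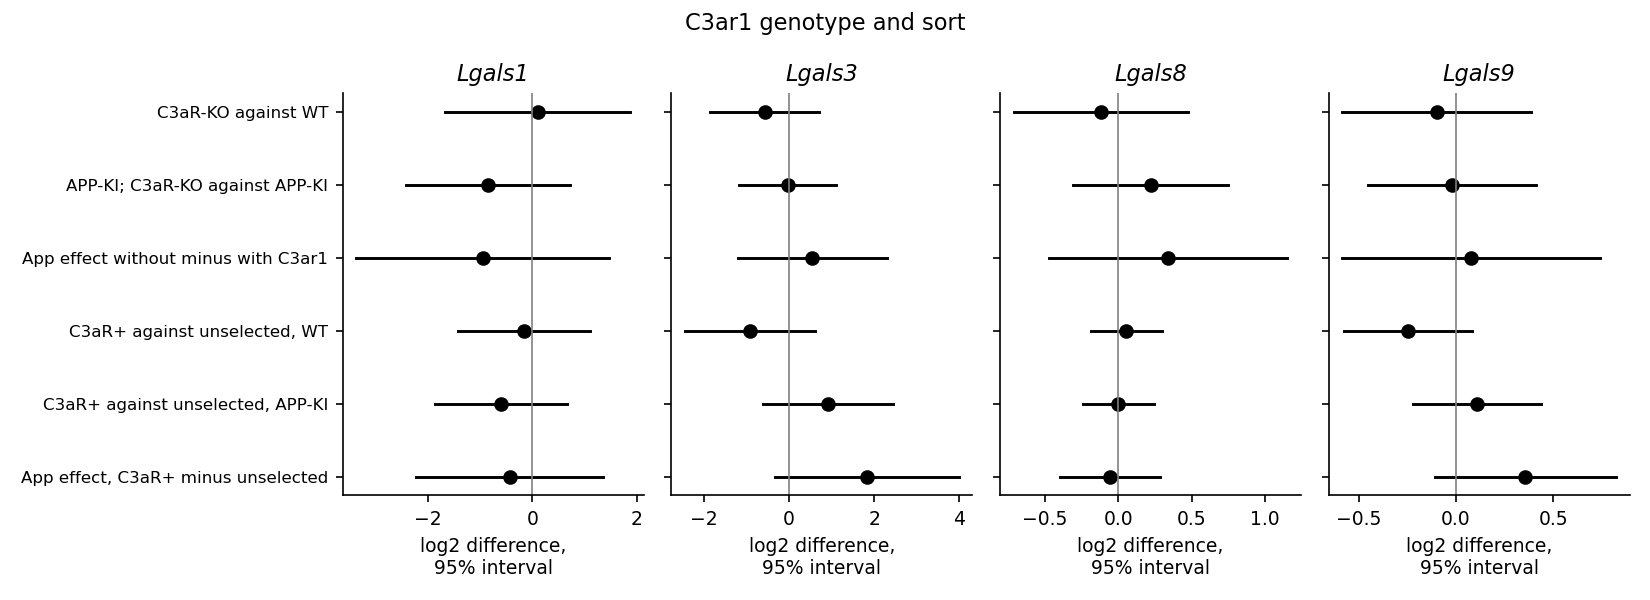
Log2 differences (x axes, which differ in width) with 95% intervals for the 4 galectins in the comparisons by C3ar1 genotype, by sort, and in the 2 tests of a difference between App effects. Every interval holds 0, and those of Lgals8 and Lgals9 are narrower than those of Lgals1 and Lgals3.

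Ordered by mean level over the 6 groups, Lgals3 ran from APP-KI C3aR+ (44.9), APP-KI; C3aR-KO (38.0) and unselected APP-KI (32.2) to WT (9.11), C3aR-KO (4.00) and WT C3aR+ (3.91), and the ranges of all neighbours in that order overlapped. Lgals9 ran from WT (221), C3aR-KO (198) and WT C3aR+ (187) to APP-KI C3aR+ (146), APP-KI; C3aR-KO (143) and, last, APP-KI (136), and only the step between WT C3aR+ and APP-KI C3aR+ was free of overlap. Lgals8 ran from WT C3aR+ (89.5), C3aR-KO (87.4) and WT (86.3) to APP-KI; C3aR-KO (76.6), with APP-KI C3aR+ and APP-KI last (66.1 each). For these 3 genes the groups with and without the App knock-in thus filled opposite ends of the order, all neighbours of Lgals8 overlapping. Lgals1 ran only from 15.9 in APP-KI to 11.9 in C3aR-KO, with every neighbour overlapping and no such division.

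How the members varied together depended on the libraries that stand apart. For Lgals3 and Lgals8, Pearson's r of the log2 values was -0.31 over all 20 libraries and -0.94 over the 15 that did not stand apart. After each group's mean was taken away it was 0.11 over the 20 and -0.72 over the 15, a change of sign. For Lgals3 and Lgals9 r was -0.26 and -0.75, and after group means were removed 0.63 and -0.36, so here too the sign changed. Lgals8 and Lgals9 had 0.39 over the 20 and 0.78 over the 15, and after group means were removed 0.12 and -0.01. These r values share the libraries' depth and scaling and are given as a description only.

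The genes whose log2 values followed each member most closely over the 20 libraries, out of 12373 with a mean of at least 1, were as follows. Lgals3 went with Tyrobp (r = 0.97), the adaptor through which Trem2 signals, with Rack1 (0.96), a ribosomal scaffold protein, with Sri (0.96), a calcium-binding protein, with Ctsl (0.96), the lysosomal protease cathepsin L, and with Colgalt1 (0.96), which puts galactose on collagen. All 5 kept an r of at least 0.93 over the 15 libraries, but there they ranked only 26 to 220, and Fth1 (0.98) was closest. Lgals9 went with 4930453N24Rik (0.95), Adam10 (0.94), the α-secretase of App, Adgrg1 (0.94), an adhesion receptor of homeostatic microglia, Cd164 (0.93) and Cask (0.93). Lgals8 went with Zfp865, BC024978, Gpsm1, Rprd1b and Tiprl (0.90 to 0.92), and Lgals1 with Timm17a, Rps19bp1, Gm20075, Naxe and Park7 (0.91 to 0.93). The r of the 5 genes with Lgals1 was 0.76 to 0.84 over the 15 libraries, where they ranked 12 to 62. Those of Lgals9 ranked 4 to 44 there and those of Lgals8 41 to 743, so these lists too depend on the libraries used.

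Of the rest of the family, Lgals3bp makes the galectin-3 binding protein, a secreted glycoprotein, and Lgalsl a protein related to galectins. In C3aR-positive microglia 3 of the 8 listed genes were abundant enough to test, and both of these rose, where 13% of all genes were called higher and 9.71% lower. The other tested gene, the galectin gene Lgals4, was lower without passing, at 5.79 ± 2.11 in WT C3aR+ and 1.51 ± 0.928 in APP-KI C3aR+ (SD, n = 3). Its log2 fold change was -1.46 (SE 0.51; limma, adjusted p = 0.066), and 0.30 (SE 0.61; adjusted p = 0.97) in unselected microglia. Lgals3bp was 163, 154 and 96.1 in WT C3aR+ and 415, 705 and 890.1 in APP-KI C3aR+, a 4.86-fold difference of means without overlap (log2 fold change 2.24, SE 0.28; limma, adjusted p = 0.00056), and Lgalsl was 1.25 ± 0.529 and 7.04 ± 2.48 (SD, n = 3; log2 fold change 1.82, adjusted p = 0.02). In unselected microglia Lgals3bp was 165, 278 and 231 in WT and 164, 496 and 805 in APP-KI, the lowest again in replicate 4, and its log2 fold change was 1.38 (SE 0.65; limma, adjusted p = 0.41), or 1.64 (SE 0.09; adjusted p = 8.3e-06) without the sparse libraries. In mice without C3ar1 it was 1.08 (SE 0.58; adjusted p = 0.31), or 1.92 (SE 0.12; adjusted p = 1.6e-05).

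Surface partners are receptors and glycoproteins that galectins bind or cross-link. Of the 18 tested in C3aR-positive microglia, 8 rose and 3 fell, with a list median of 0.63 on the log2 scale beside -0.17 for all genes, of which 13% were called higher and 9.71% lower. The largest rises were in Cd274 (2.36, SE 0.24), the PD-L1 ligand, Cd44 (1.63, SE 0.20), a receptor for hyaluronan, Nrp1 (1.53, SE 0.18), a co-receptor of semaphorins and VEGF, and Lamp1 (1.30, SE 0.14), the main glycoprotein of the lysosome membrane (limma, adjusted p 0.00023 to 0.00058). The falls were in Cd80 (-1.49, SE 0.42), Mrc1 (-1.33, SE 0.30), the mannose receptor, which is also on the border macrophage list, and Tlr4 (-0.72, SE 0.14). In unselected microglia Cd274 (2.40, SE 0.31) and Nrp1 (1.22, SE 0.19) rose and Mrc1 (-1.69, SE 0.24) fell, and in mice without C3ar1 Trem2 (1.07, SE 0.21) and Lamp2 (0.71, SE 0.18) rose besides Cd274 (2.17, SE 0.28) and Nrp1 (1.59, SE 0.16), and Mrc1 (-1.19, SE 0.21) fell. Without the sparse libraries these counts were 6 up and 5 down, and 7 up and 3 down, beside 13.2% and 14.7%, and 13.2% and 18.2%, of all genes. With APP-KI replicate 5 also left out, which leaves 1 APP-KI library, fewer partners passed in unselected microglia, and their median went from -0.10 to -0.06.

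For the response to damaged lysosomes, 27 genes were tested in C3aR-positive microglia, of which 6 rose and 1 fell, and their median was -0.03, where 13% of all genes were called higher and 9.71% lower. Optn, an autophagy receptor, rose most (2.02, SE 0.25), followed by Gabarap (1.04, SE 0.12) and Map1lc3a (0.90, SE 0.26), which coat autophagosomes, and Sqstm1 (0.61, SE 0.11), another autophagy receptor. Slc38a9, the lysosomal arginine sensor, fell (-0.59, SE 0.13). In unselected microglia only Optn passed (2.10, SE 0.30), as in mice without C3ar1 (1.86, SE 0.27), while without the sparse libraries 5 rose and 4 fell, and 6 rose and 4 fell, where 13.2% of all genes were called higher in each fit and 14.7% and 18.2% lower. With APP-KI replicate 5 also left out, which leaves 1 APP-KI library, fewer genes of the list passed in unselected microglia, and their median went from -0.07 to 0.0092.

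Enzymes that build, branch or cap the glycans that galectins bind were 21 in the C3aR-positive fit, of which 3 rose and 8 fell, with a median of -0.38, beside the same 13% and 9.71% of all genes. Gcnt2, which adds the I branch to poly-lactosamine (1.74, SE 0.20), Glb1, the lysosomal β-galactosidase (1.90, SE 0.25), and St6gal1, which caps galactose with α2,6-sialic acid (0.72, SE 0.13), rose. The 4 largest falls were in B3gnt8 (-1.04, SE 0.29), which extends poly-lactosamine, and in Mgat1 (-0.72, SE 0.13), Gcnt1 (-0.51, SE 0.13) and Mgat4a (-0.48, SE 0.10), which start or branch the glycans. The count of falls depends on the scaling: with median ratio scaling 4 rose and 1 fell, and the median was -0.24. In unselected microglia Gcnt2 rose (1.81, SE 0.32) and Gcnt1 (-0.78, SE 0.14) and Mgat4a (-0.68, SE 0.15) fell, beside 2.22% of all genes called higher and 1.93% lower. In mice without C3ar1 the same 3 moved the same way (1.49, SE 0.29; -0.73, SE 0.13; -0.64, SE 0.13), with St3gal6 (-0.56, SE 0.15) also lower, beside 3.96% and 2.97% of all genes. Of the 22 enzymes tested in unselected microglia without the sparse libraries, 4 were called higher and 9 lower, beside 13.2% and 14.7% of all genes. In mice without C3ar1, where 1 C3aR-KO library was left, the median of the list was 0.0078. Its log2 fold changes there went both ways, from -1.10 for B3gnt8 to 1.67 for Gcnt2. With APP-KI replicate 5 also left out, which leaves 1 APP-KI library, fewer enzymes passed in unselected microglia. Their median there went from -0.12 to -0.34. After loss of C3ar1, limma called 0 of the 70 tested genes of the 4 lists, with 2 at an unadjusted p under 0.05 from WT to C3aR-KO (B3gnt2 and Mrc1) and 1 in APP-KI (Lgals4), named here after their values were seen.

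**Figure D5:**
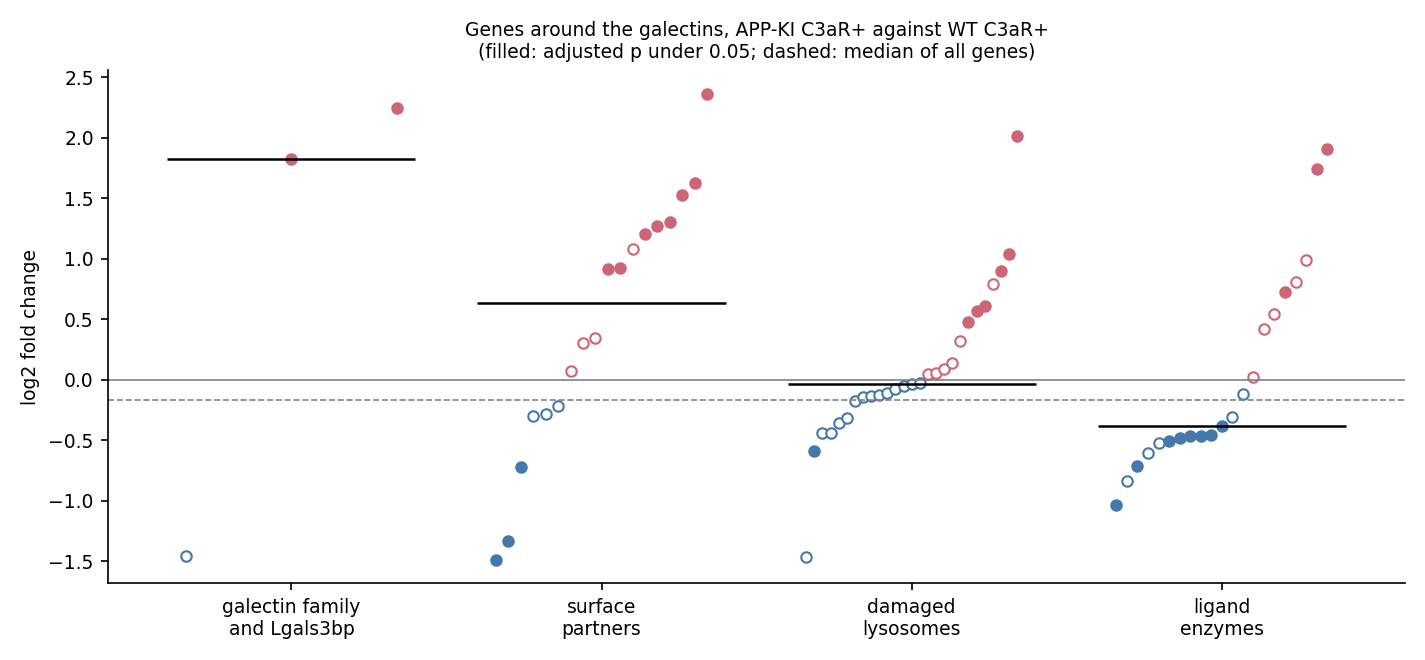
Log2 fold change (y axis) of each tested gene in the 4 lists between APP-KI C3aR+ and WT C3aR+, ordered by value within a list, with a black line at the list median, at 1.82, 0.63, -0.03 and -0.38. Filled points passed the test, and the dashed line is the median of all genes, -0.17.

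Markers of other cells moved with some of these results, and their part was not tested. The summed level of 8 border macrophage markers, with no marker at 0 throughout any group, was 480.1 to 720.1 in WT C3aR+ and 192 to 398 in APP-KI C3aR+, and 455 to 1231 in WT and 269 to 305 in APP-KI, and 374 to 605 in C3aR-KO and 198 to 359.98 in APP-KI; C3aR-KO, so it was lower in the groups where Lgals3 was higher. The 7 monocyte markers summed to 65.6 to 141 in WT C3aR+ and 81.7 to 168 in APP-KI C3aR+, and the 8 neutrophil markers to 21.1 to 546 and 29.8 to 240, overlapping ranges, with the neutrophil marker Ly6g at 0 in all 3 WT C3aR+ libraries. The 10 microglia markers summed to 24602 to 27015 in WT C3aR+ and to 17914 to 21136 in APP-KI C3aR+, and to 29171 to 31272 in WT and 11589 to 23679 in APP-KI. The 6 endothelial markers summed to 38.4 to 90.7 and 169 to 327, with Flt1 alone at 217 ± 84.7 (SD, n = 3) in the latter, while Pecam1 fell (31.5 ± 10.4 to 6.64 ± 2.27, SD, n = 3). Between unselected WT and APP-KI, Flt1 went from 10.9 ± 1.02 to 194 ± 43.3 (SD, n = 3; limma, adjusted p = 1.1e-07). The 7 markers of T and NK cells summed to 6.11 or less in every C3aR+ library, with 4 of them at 0 in all 3 of APP-KI C3aR+. In unselected microglia they summed to 1.42 to 1.73 in WT, 2.79 to 60.9 in APP-KI, 6.31 to 51.2 in C3aR-KO and 0.136 to 29.98 in APP-KI; C3aR-KO, with the highest sums in APP-KI replicate 5, C3aR-KO replicate 2 and APP-KI; C3aR-KO replicate 2. The 6 oligodendrocyte markers summed to 86.7 to 114 in WT C3aR+ and 156 to 169 in APP-KI C3aR+. The 6 astrocyte markers summed to 299 to 395 and 222 to 266, most of it Slc1a3, which fell (292 ± 29.3 to 198 ± 7.38, SD, n = 3), whereas Gfap rose (0.576 ± 0.544 to 8.75 ± 4.75; limma, adjusted p = 0.0072). The 6 neuron markers, at 2.71 to 4.10 and 1.47 to 5.50, and the 6 of fibroblasts and pericytes, at 8.33 to 34.0 and 13.1 to 18.7, overlapped.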

How the data were processed

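RNA of sorted microglia was made into libraries with a total RNA kit that adds molecular identifiers, sequenced, trimmed with cutadapt, aligned with TopHat to mm10 and counted with featureCounts by the authors, per the study's methods and the submitters' processing notes. The deposited values are named FPKM, but each is a signal: a read count divided by the library's 75th percentile count, with no division by length. Whole reads were recovered for 100% of values (within 0.1 reads, for values up to 10000 reads). The design had assumed a normalized unit, and the log-scale test was kept. Values were multiplied by 35.2, the 10 symbols on more than 1 of the 21326 rows were summed, and limma 3.58.1 in R 4.3.3 tested log2(scaled value + 1), with its trend option on, for genes whose mean was at least 1. Contrasts among the 14 unselected libraries had a term for the 2 library-number series. edgeR 4.0.16 and DESeq2 1.42.0 on recovered reads were alternatives, and the fits were tested on simulated data. Exact permutation tests (49, lowest Benjamini-Hochberg value 0.49) used scipy 1.17.1.

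The members and lists were chosen with earlier results of these data known. Named genes were the members, C3ar1, App, from each list up to 4 called genes with the largest rise and 4 with the largest fall per comparison, and the 5 genes with the highest r to each member. Leaving out the 4 sparse libraries, without or with APP-KI replicate 5, was chosen after seeing the data. Intervals and limits from counts cover counting error only.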

Additional observations from a re-analysis of the deposited data

Results flagged for a closer look

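In the only group with more than 3 libraries, APP-KI; C3aR-KO, 5 measures were tested for a library far from the others, and 3 of them had one, in each case replicate 1. Lgals1 was 0 there and at least 17.2 in the other 4 libraries, a gap of 0.821 of the group's range against a critical value of 0.71. Lgals8 was 107 there, with a gap of 0.779, and was the highest of the 5. Lgals9 was 87.2 there, with a gap of 0.843, and was the lowest. Chance alone flags about 1 in 20 groups, and the 3 measures share the library. It also lists the most genes at 0, 8939, and its 10 microglia markers sum to 9957, the lowest of the 20 libraries. Without it the means of the group were 19.1 ± 1.57 for Lgals1, 69.1 ± 3.87 for Lgals8, 157 ± 4.95 for Lgals9 and 45.0 ± 18.5 for Lgals3 (SD, n = 4).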

How the results depend on the processing

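Of 942 alternative values 808 kept their direction and side of the threshold, 74 reversed, 32 moved, 16 were weaker and 12 stronger. The cause of a change was not tested. In C3aR-positive microglia the 2 galectins called became 1 under median ratio scaling, limma without a trend, edgeR, DESeq2, the replicate block and without any 1 library (1 to 1), and 0 at an adjusted p under 0.0005. In unselected microglia the 0 called became 1 with DESeq2, 0 to 1 without 1 library (1 without APP-KI replicate 4), and 3 without the 4 sparse libraries, alone or with APP-KI replicate 5. In mice without C3ar1 the 1 called became 0 with edgeR, at 0.0005 and under the replicate block, and 4 without the 4 sparse libraries, alone or with replicate 5.

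The labels do not say whether the replicate numbers pair the libraries, and the main fits used no pairing. Deviations of same-numbered libraries had r of -0.04 to 0.25, with 3 of 11 pairs over 0.1. Some libraries were most alike to the one with their own number, such as replicate 4 of WT and APP-KI, and others were not. With so few libraries per group these values cannot settle the question. With the replicate block, Lgals3 was 1.70 and Lgals9 0.20 in APP-KI; C3aR-KO against APP-KI, and Lgals8 was 0.0063 in APP-KI; C3aR-KO against C3aR-KO.

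The remaining reversals were of log2 differences that no fit with all libraries called. With edgeR and DESeq2, Lgals1 was 0.033 and 0.047 between APP-KI and WT in C3aR-positive microglia, -0.021 and -0.0061 after loss of C3ar1, and 0.082 and 0.089 for App in mice without C3ar1, and Lgals9 was 0.0059 and 0.0029 after loss of C3ar1 in APP-KI. With median ratio scaling, edgeR and DESeq2, Lgals8 was 0.078, 0.029 and 0.076 for the sort in APP-KI, and 0.048, 0.012 and 0.048 for the difference of App effects by sort. With no series term Lgals1 was -0.28 after loss of C3ar1 and, in APP-KI, Lgals3 was 0.45 and Lgals9 0.051. With only the 2 groups, Lgals1 was -0.13 after loss of C3ar1.

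Without the 4 sparse libraries, and then also without APP-KI replicate 5, Lgals1 was -0.55 and -0.58 and Lgals8 0.13 and 0.14 after loss of C3ar1, Lgals1 was 0.88 and 0.91 for App in mice without C3ar1, Lgals9 was 0.070 and 0.012 after loss of C3ar1 in APP-KI, Lgals1 was 0.42 and 0.64 and Lgals8 -0.063 and -0.15 for the difference of App effects by C3ar1, and Lgals9 was -0.033 and -0.096 for the sort in APP-KI. With replicate 5 also left out, Lgals1 was 0.053 and Lgals8 -0.0060 after loss of C3ar1 in APP-KI, and Lgals3 -0.46 for the sort in APP-KI.

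Leaving out 1 library at a time, the highest value was 0.30 for Lgals8 after loss of C3ar1 in APP-KI and 1.59 for Lgals3 for the sort in APP-KI, and other values ran as follows. Between APP-KI and WT in C3aR-positive microglia Lgals1 ran from -1.13 to 0.055. After loss of C3ar1 Lgals1 ran from -0.18 to 0.77, Lgals8 from -0.38 to 0.26 and Lgals9 from -0.29 to 0.071, and in APP-KI Lgals1 ran from -1.40 to 0.16, Lgals3 from -0.60 to 0.47 and Lgals9 from -0.14 to 0.17. For App in mice without C3ar1 Lgals1 ran from -1.17 to 0.49 and Lgals8 from -0.46 to 0.18. For the difference by C3ar1 Lgals1 ran from -1.72 to 0.31, Lgals8 from -0.0012 to 0.57 and Lgals9 from -0.085 to 0.31. For the sort in WT Lgals1 ran from -0.55 to 0.048 and Lgals8 from -0.0026 to 0.11, and in APP-KI Lgals8 from -0.032 to 0.026 and Lgals9 from -0.033 to 0.21. For the difference by sort Lgals1 ran from -1.19 to 8.3e-05 and Lgals8 from -0.11 to 0.0020.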
